A study of Mus musculus with 24 samples.

Results

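The genes that loss of Ezh1 and Ezh2 raised or lowered in the hypertrophic zone (HZ) of the mouse growth plate were sought by setting 6 HZ arrays of Ezh1/2 mice against 6 HZ arrays of wild-type mice. These 12 arrays were chosen by their labels alone, out of 24 arrays in the series. The other 12 arrays hold the proliferative zone (PZ) of the same genotypes. The Ezh1/2 mice, labelled Ezh2 KO, were Col2-cre Ezh1-/- Ezh2 fl/fl, and in the crosses described for the study the wild-type mice were Col2-cre Ezh1-/- Ezh2+/+. Both groups thus lacked Ezh1 and carried the Cre, so that the comparison is one of Ezh2 loss on an Ezh1-null background. Cre was driven by the Col2 promoter, which is active in cartilage, and perichondrium and bone next to the growth plate keep Ezh2. All mice were 3 days old and of mixed background. Each array measured RNA from 1 zone of 1 animal, taken by laser capture microdissection from the tibial growth plate, pooled over sections and amplified before hybridization to a whole-transcript array. Values are log2 expression, so a difference of 1 is a doubling.

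EZH1 and EZH2 are alternative catalytic subunits of Polycomb repressive complex PRC2, which methylates lysine 27 of histone H3 and keeps developmental genes silent, mostly at promoters rich in CpG dinucleotides. In the growth plate, chondrocytes divide in columns in the PZ, then leave the cell cycle, enlarge and become hypertrophic. Hypertrophic chondrocytes make type X collagen, mineralize their matrix and release signals for blood vessels and bone, and their enlargement drives much of the lengthening of a bone.

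The HZ identity of the 12 arrays was checked against known markers. The hypertrophic collagen gene Col10a1 lay between 12.07 and 12.80 on HZ arrays and between 7.87 and 10.07 on PZ arrays, while the proliferation gene Top2a lay between 4.75 and 6.73 on HZ arrays and between 7.37 and 7.89 on PZ arrays. The zones did not overlap for either gene. The array-to-array spread was wider in the HZ. The median SD of a probe set within a group was 0.271 in the Ezh1/2 HZ and 0.28 in the wild-type HZ, against 0.197 and 0.189 in the PZ of these genotypes, and correlations between arrays of a group ran from 0.896 to 0.939 in the Ezh1/2 HZ and from 0.894 to 0.946 in the wild-type HZ. Ezh1/2 array 1 and wild-type arrays 1 and 4 spanned a narrow range of values, with interquartile ranges of 1.43, 1.35 and 1.42 where the other HZ arrays had 1.57 to 1.78. Skeletal muscle markers stood out on Ezh1/2 arrays 3, 4 and 6 and on wild-type array 2. These arrays have open symbols in the plots of single arrays, and results that moved without them are given with that value. Wild-type array 1, with a muscle marker mean of 5.64, was not counted among these arrays. Female arrays, told by Xist above 10, were 3 of 6 in each group.

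The transcripts of the targeted genes came first. Ezh2 had lowest, median and highest levels of 6.20, 6.48 and 6.61 on Ezh1/2 arrays and of 5.88, 6.28 and 6.60 on wild-type arrays, and the groups overlapped. The difference of 0.17 ± 0.12 (SE) did not pass (adjusted p = 0.899 from limma), so this probe set did not tell the HZ groups apart. The paper, by quantitative PCR on microdissected tissue, reported that Ezh2 was much lower in Ezh1/2 mice in every zone, the HZ included. In the PZ the Ezh2 difference was -0.63. How much of this probe set lies in the deleted exons is not given in the sources used here. Ezh1 lay between 4.33 and 4.85 on Ezh1/2 arrays and between 4.35 and 4.88 on wild-type arrays. Of 12 PRC2 genes measured, Ezh1 and Ezh2 among them, 1 had a positive difference at an unadjusted limma p under 0.05, where 3.74% of all genes did, namely Jarid2, which helps to bring the complex to its sites (0.41, adjusted p = 0.68 from limma).

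At an adjusted p under 0.05 in limma, 6 probe sets rose and 1 fell in the HZ of Ezh1/2 mice, of 41345 tested (0.0145% and 0.00242%, together 0.0169%). At an unadjusted p under 0.001 with a fold over 1.3, 81 were higher and 55 lower (0.196% and 0.133%), while at an unadjusted p under 0.05 alone 1252 were higher and 1478 lower (3.03% and 3.57%). The split at p under 0.001 ran the other way when wild-type array 1 (63 higher, 78 lower) or wild-type array 4 (76 higher, 85 lower) was left out. The genes that rose were Cp, Adamts9, Ncam1, Homer2 and Svep1, and the gene that fell was Cbln2. A probe set with no gene symbol was the other one that rose, by 2.46 ± 0.32 (SE, adjusted p = 0.0254). The genes have unlike roles, in iron export, matrix cleavage, cell adhesion and synaptic scaffolds. Ncam1 and Svep1 are both on the list of adhesion molecules, and no other list held more than 1 of them.

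Cp encodes ceruloplasmin, the copper-bound ferroxidase that oxidizes iron as it leaves cells. Its lowest, median and highest levels were 6.74, 7.07 and 7.58 on Ezh1/2 arrays, against 5.17, 5.52 and 5.79 on wild-type arrays. Every Ezh1/2 array stood above every wild-type array, and the mean was 3.03-fold higher in Ezh1/2 mice (difference 1.60 ± 0.17, SE, n = 6 each, adjusted p = 0.014 from limma). The exact two-sided permutation test gave p = 0.0022, the smallest that 6 against 6 arrays allow. Every probe set without overlap has this p, 112 higher and 77 lower on Ezh1/2 arrays, so it adds nothing to the lack of overlap.

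Adamts9 encodes a secreted protease that cleaves aggrecan and versican. It had 5.80, 6.16 and 6.56 on Ezh1/2 arrays and 4.80, 4.93 and 5.24 on wild-type arrays, with no overlap (difference 1.15 ± 0.14, SE, adjusted p = 0.0254 from limma). Svep1, a large extracellular adhesion protein gene, had 4.40, 4.74 and 5.07 on Ezh1/2 arrays and 3.78, 3.83 and 3.90 on wild-type arrays in its called probe set (difference 0.87 ± 0.12, SE, adjusted p = 0.0461 from limma). The wild-type arrays lay within a narrow band at the low end of the scale there. The brighter Svep1 probe set had a difference of 0.48 ± 0.19 (SE) and did not pass (adjusted p = 0.647 from limma).

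Ncam1 encodes a homophilic adhesion molecule of neurons, muscle and condensing mesenchyme. Its levels were 6.43, 6.74 and 7.20 on Ezh1/2 arrays and 4.91, 5.49 and 5.81 on wild-type arrays, again with no overlap (difference 1.32 ± 0.17, SE, adjusted p = 0.0254 from limma). Muscle also expresses this gene, and the part of muscle or of other tissues in the difference was not tested. Ezh1/2 arrays 1, 2 and 5, on which muscle markers averaged 4.49 to 4.59, had 6.43, 6.57 and 6.62, above all 6 wild-type arrays. Without the 4 arrays high in muscle markers the difference was 1.12 and did not pass (adjusted p = 0.397 from limma).

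Homer2, a postsynaptic scaffold gene that also acts in calcium signalling, had 4.69, 4.94 and 5.06 on Ezh1/2 arrays and 3.97, 4.06 and 4.23 on wild-type arrays (difference 0.83 ± 0.10, SE, adjusted p = 0.0254 from limma). Cbln2, which encodes a secreted synapse organizer of the C1q family, ran the other way. It had 4.68, 4.79 and 5.13 on Ezh1/2 arrays and 5.62, 5.81 and 6.25 on wild-type arrays, and it fell by 1.0 on the log2 scale (SE 0.13, adjusted p = 0.0254 from limma), to 4.86 ± 0.18 in Ezh1/2 mice, against 5.86 ± 0.23 in wild-type mice (SD, n = 6). Neither gene had overlapping groups.

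**Figure D1:**
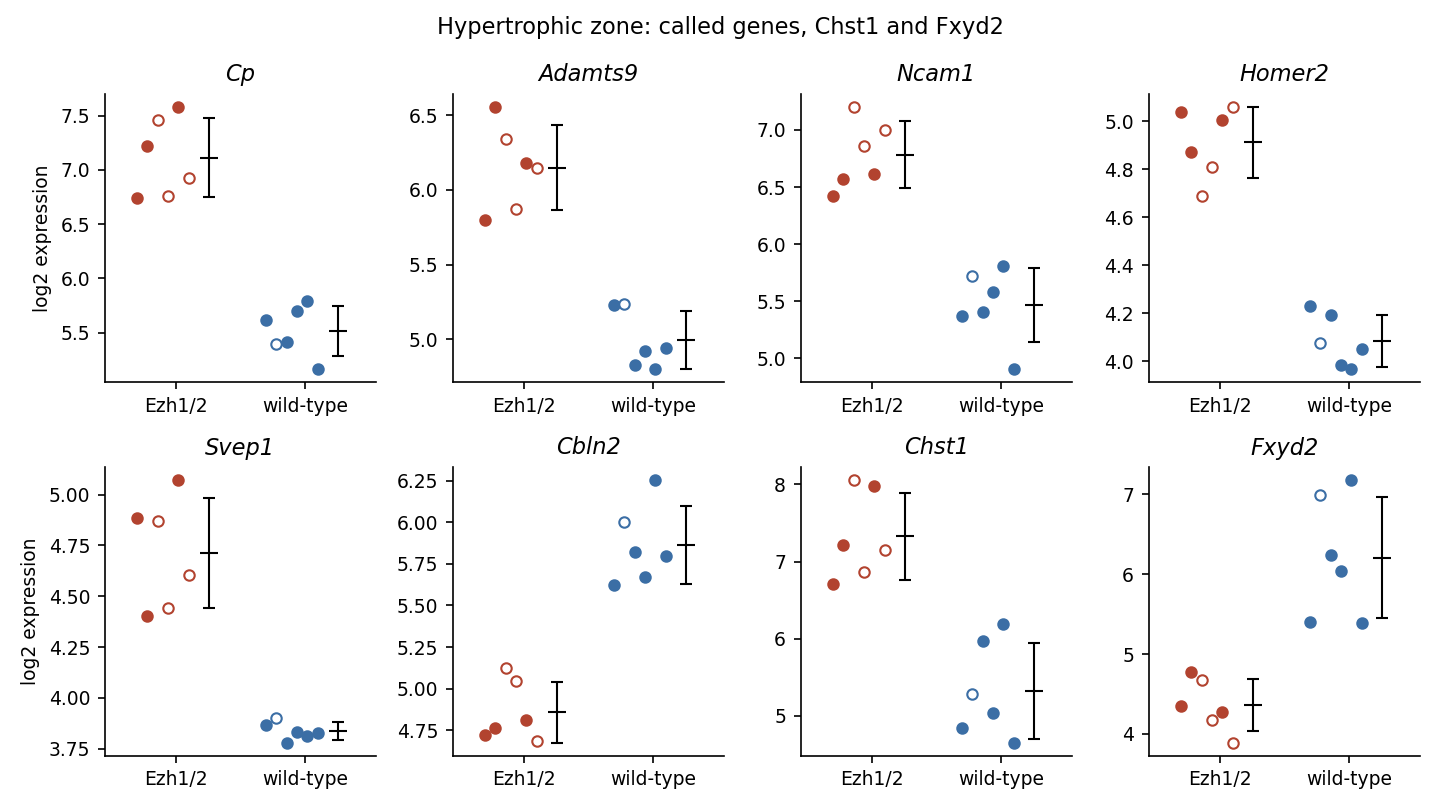
Log2 expression of the 6 called genes, Chst1 and Fxyd2 on each HZ array (y axis), Ezh1/2 arrays on the left and wild-type arrays on the right, with mean ± SD as a bar and arrays high in skeletal muscle markers as open symbols. No gene shown has overlapping groups, and for Cp the Ezh1/2 arrays lie between 6.74 and 7.58 and the wild-type arrays between 5.17 and 5.79.

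Each of these calls ended when certain single arrays were left out. The call of Cp ended without Ezh1/2 array 2 (adjusted p = 0.0588) or wild-type array 2, 3 or 6 (0.0722, 0.0737 and 0.0542 in limma). Adamts9 kept its call without Ezh1/2 array 1 or 4 or wild-type array 1, Homer2 without Ezh1/2 array 1, 3 or 4 or wild-type array 1, Cbln2 without Ezh1/2 array 4 or wild-type array 1, and Ncam1 without Ezh1/2 array 1. Without each other array in turn these calls ended, with adjusted p from 0.0539 to 0.108 in limma. The call of Svep1 ended without any array but Ezh1/2 array 4, with adjusted p from 0.0588 to 0.154. Without the 4 arrays high in muscle markers 0 probe sets passed, with differences of 1.64 for Cp, 1.23 for Adamts9, 0.89 for Homer2 and -1.07 for Cbln2 and adjusted p of 0.359 from limma. Without Ezh1/2 array 1 and wild-type arrays 1 and 4, 0 passed too. With the spread estimated over all 24 arrays instead, 128 probe sets rose and 74 fell. That spread takes in the PZ arrays, with median SD of 0.197 and 0.189 against 0.271 and 0.28 in the HZ. It can thus understate the HZ spread, and these counts are not an equal alternative to the calls above.

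The windows around the transcription starts of 4 of the genes are shown because PRC2 is known to act at CpG-rich promoters. They come from RefSeq on GRCm38.p6, run from 250 bases before the start to 50 after it, read 5′ to 3′ on the gene's strand, and have each CpG in capitals. Adamts9 (chr6:92943485-92943784, minus strand) and Igfbp3 (chr11:7213874-7214173, minus strand) hold 25 and 37 CpG. Igfbp5 (chr1:72874816-72875115, minus strand) and Cp (chr3:19956999-19957298, plus strand, the richer of 2 windows listed) hold 10 and 4.
Adamts9: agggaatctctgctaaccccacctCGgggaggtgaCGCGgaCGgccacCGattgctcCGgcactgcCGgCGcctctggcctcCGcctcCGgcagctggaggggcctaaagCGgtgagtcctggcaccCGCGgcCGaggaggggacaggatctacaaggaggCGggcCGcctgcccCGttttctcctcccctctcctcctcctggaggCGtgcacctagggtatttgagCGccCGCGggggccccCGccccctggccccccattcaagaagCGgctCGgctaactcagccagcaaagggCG
Igfbp3: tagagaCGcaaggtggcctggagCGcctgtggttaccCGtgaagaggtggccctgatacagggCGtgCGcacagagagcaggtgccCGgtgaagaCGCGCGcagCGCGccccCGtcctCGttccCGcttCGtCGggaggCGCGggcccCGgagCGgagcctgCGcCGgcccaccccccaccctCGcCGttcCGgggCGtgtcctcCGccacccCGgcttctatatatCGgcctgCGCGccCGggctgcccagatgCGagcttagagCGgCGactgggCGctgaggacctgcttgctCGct
Igfbp5: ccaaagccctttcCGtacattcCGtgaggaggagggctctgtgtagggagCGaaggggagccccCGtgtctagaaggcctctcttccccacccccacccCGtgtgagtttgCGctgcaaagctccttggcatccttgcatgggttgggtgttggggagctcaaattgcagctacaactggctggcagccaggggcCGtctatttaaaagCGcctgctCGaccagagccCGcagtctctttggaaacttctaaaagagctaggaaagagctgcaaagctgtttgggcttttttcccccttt
Cp: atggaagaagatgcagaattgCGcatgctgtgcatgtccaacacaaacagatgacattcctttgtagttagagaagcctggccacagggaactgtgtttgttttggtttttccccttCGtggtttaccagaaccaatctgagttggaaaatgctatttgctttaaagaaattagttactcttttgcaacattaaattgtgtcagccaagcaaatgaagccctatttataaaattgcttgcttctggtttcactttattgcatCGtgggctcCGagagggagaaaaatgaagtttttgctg
Of 16990 measured genes with such a window, 39.1% held 20 or more CpG and the median was 15. The 43 genes with a window among 63 (0.284%) with a positive difference at an unadjusted limma p under 0.001 had a median of 21, and the 19 of 24 (0.108%) with a negative difference one of 17. At an unadjusted p under 0.01 the medians were 21 for 193 genes with a positive difference and 23 for 143 with a negative one. Ncam1 and Cbln2 are not in the table.

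Next to the called genes, several genes had groups without overlap and adjusted p above 0.05. Over genes, each read from 1 probe set, 0.406% had groups without overlap and higher Ezh1/2 levels, and 0.176% had lower ones. The largest positive difference among these was that of Chst1, the enzyme that adds sulphate to keratan sulphate. Chst1 had 6.71, 7.18 and 8.06 on Ezh1/2 arrays and 4.65, 5.16 and 6.19 on wild-type arrays, a 4.01-fold difference (2.0 ± 0.31, SE, adjusted p = 0.0885 from limma). Run on 1 probe set a gene, limma called 8 genes higher and 3 lower. Those that gained a call were Chst1 (adjusted p = 0.021), Axl (0.0227), Bicc1 (0.0227), Fxyd2 (0.03), Isl1 (0.0403) and Slc2a1 (0.0465), whose adjusted p over all probe sets are given with their levels.

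Axl, a receptor tyrosine kinase gene, had a difference of 0.94 ± 0.14 (SE, adjusted p = 0.0885 from limma), and Bicc1, an RNA-binding regulator of translation, one of 1.39 ± 0.22 (SE, adjusted p = 0.0948). Among lower genes, Fxyd2, a small regulator of the sodium pump, had 3.89, 4.31 and 4.78 on Ezh1/2 arrays and 5.39, 6.14 and 7.18 on wild-type arrays. Its difference was -1.85 ± 0.30 (SE, adjusted p = 0.13 from limma), and the groups did not overlap. The antiproliferative gene Btg2 had -1.25 ± 0.25 (SE, adjusted p = 0.186), also without overlap.

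The matrix genes were read as 5 lists, of collagens, proteoglycans and glycoproteins, proteases and their inhibitors, glycosaminoglycan enzymes, and adhesion molecules. As a measure for these counts, 3.74% of all genes had a positive and 3.19% a negative difference at an unadjusted limma p under 0.05, and the median difference of all genes was -0.01. None of the 12 cartilage collagens reached that level in either direction. Their median difference was -0.15, and 9 of 12 were negative. Type II collagen (Col2a1) had 10.94, 11.47 and 11.85 on Ezh1/2 arrays and 11.10, 11.59 and 11.95 on wild-type arrays (-0.14 ± 0.16, SE), and type X collagen (Col10a1) 12.07, 12.39 and 12.74 and 12.12, 12.51 and 12.80 (-0.14 ± 0.15, SE). Both had widely overlapping groups.

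Of 30 proteoglycans and matrix glycoproteins, 6 had negative and 2 positive differences at an unadjusted limma p under 0.05, and the median was 0.05. The pentameric matrix protein gene Comp had 9.30, 10.25 and 10.69 on Ezh1/2 arrays and 10.34, 10.97 and 11.30 on wild-type arrays (-0.79 ± 0.22, SE, adjusted p = 0.412 from limma). Matn3, a matrilin of the pericellular filaments, had 7.77, 8.60 and 9.32 on Ezh1/2 arrays and 8.53, 9.66 and 9.92 on wild-type arrays (-0.90 ± 0.28, SE, adjusted p = 0.487 from limma), and its groups overlapped like those of Comp. The basement membrane proteoglycan gene Hspg2 had -0.57 and aggrecan (Acan) -0.30, with adjusted p of 0.493 and 0.699 from limma. The positive members were Prg4, the lubricating proteoglycan of joint surfaces, and the small proteoglycan Bgn. Prg4 had 4.80, 5.43 and 7.95 on Ezh1/2 arrays and 4.26, 4.68 and 4.78 on wild-type arrays, without overlap. Its highest value came from Ezh1/2 array 6, which also had the highest mean of perichondrium and fibroblast markers, and without the 4 arrays high in muscle markers its difference was 0.60 in place of 1.19. Without those arrays the list's median was -0.38.

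Among 29 matrix proteases and inhibitors, 7 differences were positive and 2 negative at that level, with a median of 0.21. Besides Adamts9, 2 secreted proteases had groups without overlap, Htra1 (0.89 ± 0.22, SE, adjusted p = 0.303 from limma) and Adamts12 (0.57 ± 0.15, SE, adjusted p = 0.391). The negative ones were the aggrecanase Adamts1 (-0.94) and the matrix-bound metalloproteinase inhibitor Timp3 (-0.68). The ADAMTS family thus had members on both sides.

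Of 36 genes for glycosaminoglycan synthesis and sulphation, 3 were positive and 5 negative, and the median was -0.05. B3gat3, which adds the last sugar of the linker that joins the chains to core proteins, had 5.39, 6.04 and 6.39 on Ezh1/2 arrays and 6.44, 6.73 and 7.05 on wild-type arrays, without overlap (-0.71 ± 0.17, SE, adjusted p = 0.284 from limma). Ugdh, which makes the UDP-glucuronate for the chains, had -0.41 ± 0.13 (SE, adjusted p = 0.465). Chst1 was thus the far positive end of a list with 13 positive and 23 negative differences.

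Of 25 adhesion molecules, each read from its brighter probe set, 7 were positive and 0 negative, with a median of 0.10. After Ncam1 the lowest p belonged to Itgb3, the beta-3 integrin of osteoclasts and platelets. Itgb3 had 6.73, 7.08 and 7.69 on Ezh1/2 arrays and 4.70, 6.19 and 6.29 on wild-type arrays (1.21 ± 0.26, SE, adjusted p = 0.224 from limma). The groups did not overlap, and wild-type array 1 was far below the others. Without Ezh1/2 array 1 and wild-type arrays 1 and 4 the difference was 0.97. Vcam1, which binds integrins of blood cells, and the mesenchymal cadherin Cdh11 had differences of 0.65 and 0.73, with overlapping groups.

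The 4 arrays high in muscle markers also moved other list medians by over 1.5 times. Without them the median was -0.34 for the collagens, 0.11 for the proteases and inhibitors, -0.09 for the glycosaminoglycan genes and, among lists described next, -0.07 for Hedgehog and PTHrP signalling, -0.04 for hypertrophy and mineralization, 0.02 for FGF and BMP signalling, 0.06 for the IGF axis, -0.11 for serine and amino acid supply and -0.01 for iron and copper handling. Without Ezh1/2 array 1 and wild-type arrays 1 and 4, the arrays of narrow range, it was -0.27 for the collagens, -0.03 for the proteoglycans, 0.07 for the proteases and inhibitors, -0.09 for the glycosaminoglycan genes and 0.03 for the adhesion molecules. Among later lists it was then 0.14 for Hedgehog and PTHrP signalling, -0.18 for hypertrophy and mineralization, -0.07 for FGF and BMP signalling, 0.08 for the IGF axis, -0.49 for cholesterol synthesis and -0.02 for iron and copper handling.

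**Figure D2:**
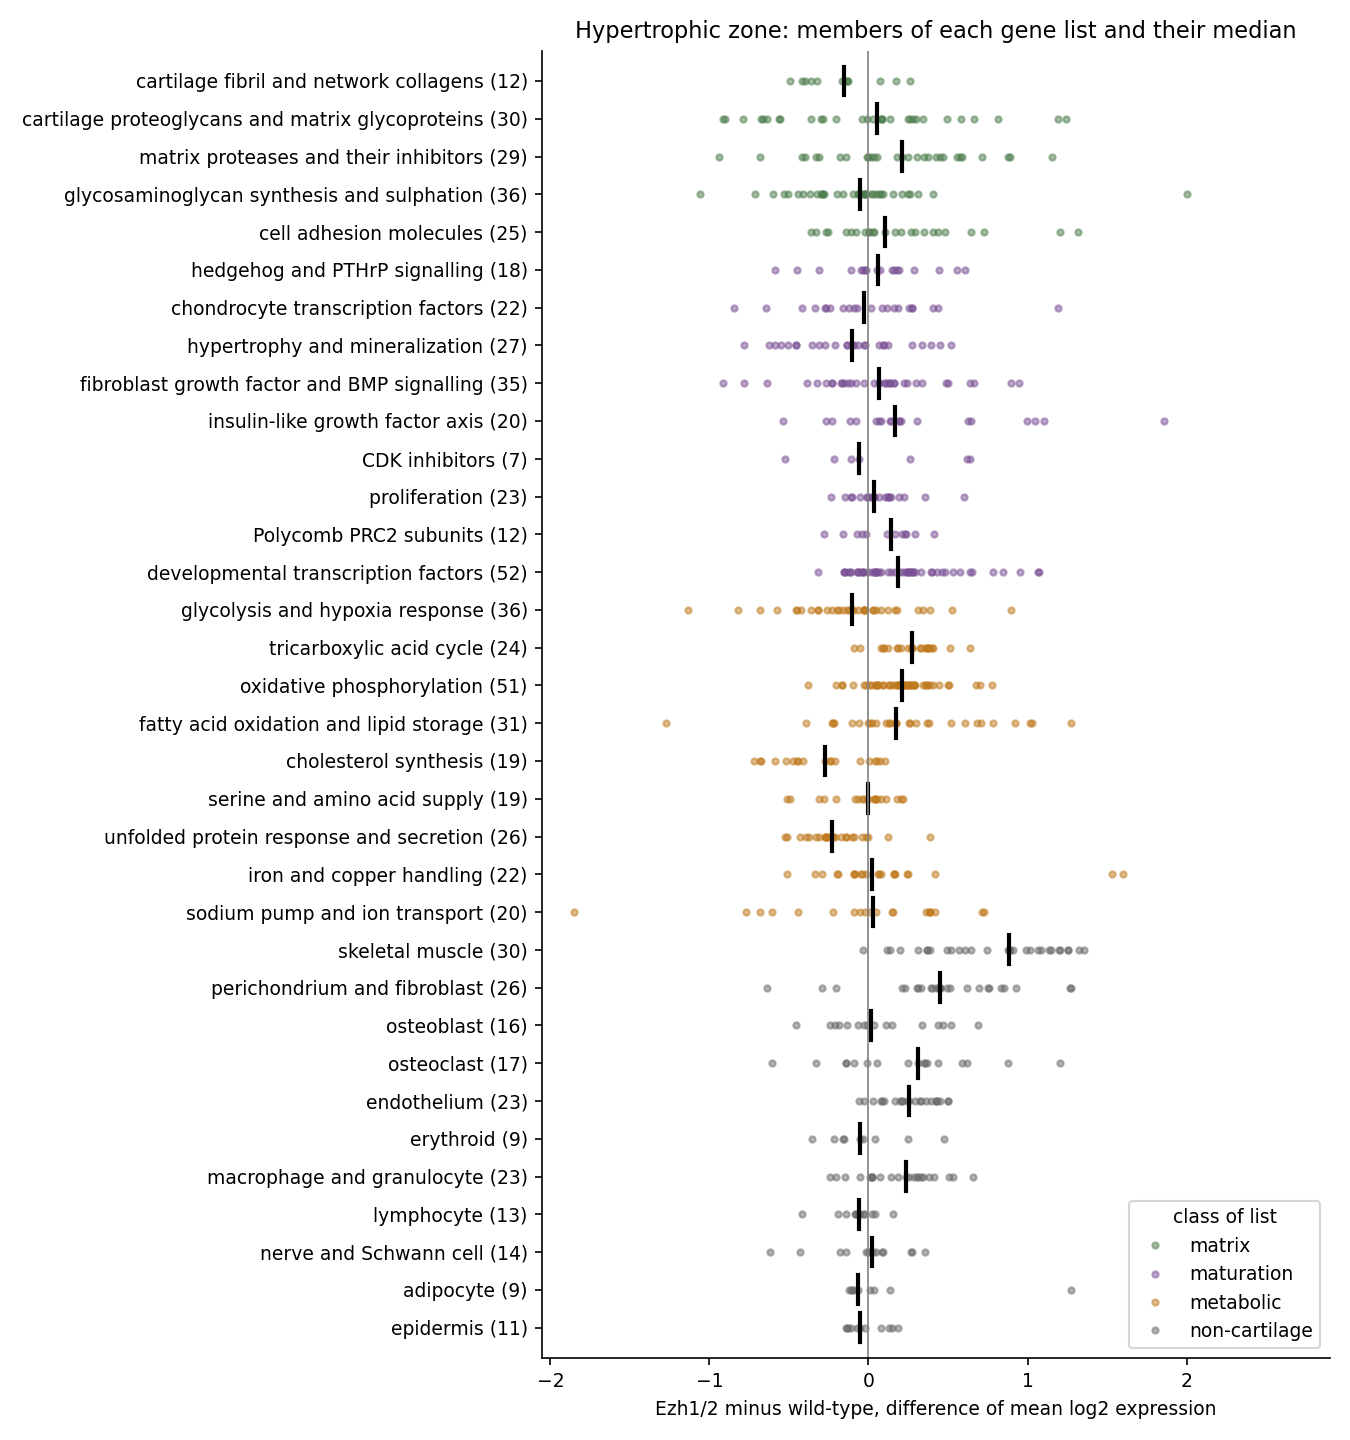
Difference of mean log2 expression in the HZ, Ezh1/2 minus wild-type (x axis), for each measured member (dot) of the 34 gene lists, with the list's median as a black bar and the number of measured members in brackets. Most medians lie within 0.3 of 0, and the skeletal muscle list stands at 0.88.

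Maturation genes were compared next. Of 27 genes of hypertrophy and mineralization, 5 were negative and 1 positive at an unadjusted limma p under 0.05, with a median of -0.10. Ihh, the Hedgehog ligand that prehypertrophic cells secrete, had 6.91, 7.37 and 7.95 on Ezh1/2 arrays and 7.67, 8.01 and 8.24 on wild-type arrays. The groups overlapped, and the difference of -0.59 ± 0.16 (SE) did not pass (adjusted p = 0.413 from limma). Fgfr3, the receptor that restrains chondrocyte division, had -0.78 ± 0.23 (SE, adjusted p = 0.446), and the hypertrophic pannexin channel gene Panx3 -0.63 ± 0.21 (SE, adjusted p = 0.561). The positive one was Ibsp, a mineral-binding sialoprotein also made by osteoblasts, with 9.99, 10.89 and 11.08 on Ezh1/2 arrays and 9.84, 10.20 and 10.88 on wild-type arrays (0.52 ± 0.21, SE, adjusted p = 0.696). Without the 4 arrays high in muscle markers it was 0.93.

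Late effectors of hypertrophy differed little against their spread. The phosphatase gene Alpl had -0.21 ± 0.18 (SE), the vascular growth factor Vegfa 0.12 ± 0.17 (SE) and the collagenase Mmp13 0.45 ± 0.45 (SE). The value of Mmp13 came from wild-type array 1, which had 8.39 where the others lay near the Ezh1/2 arrays, and without that array the difference was -0.0004. Runx2 and Spp1 have no probe set that names them alone and were left unnamed.

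In Hedgehog and PTHrP signalling, 2 of 18 genes were positive and 1, Ihh, negative, with a median of 0.06. Gli2, the main transcriptional activator of the pathway, had 0.55 ± 0.19 (SE, adjusted p = 0.557 from limma). The PTHrP receptor gene Pth1r had -0.31 ± 0.19 (SE, adjusted p = 0.852). Among 22 chondrocyte transcription factors, 2 were positive and 3 negative. Runx1, a Runt factor of early skeletal and blood cells, had 6.61, 7.20 and 7.60 on Ezh1/2 arrays and 5.02, 5.99 and 6.34 on wild-type arrays, without overlap (1.19 ± 0.23, SE, adjusted p = 0.186 from limma), while Sox9, the master regulator of cartilage genes, had 7.78, 8.47 and 8.91 and 8.61, 8.96 and 9.94, with overlap (-0.64 ± 0.25, SE, adjusted p = 0.656). Of 35 FGF and BMP pathway genes, 4 were positive and 3 negative. They included the fibroblast-derived ligand Fgf7 (0.89), the receptor Fgfr2 (0.95, and 0.47 without the 4 arrays high in muscle markers) and the ligand Bmp7 (0.66), all with overlapping groups.

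The insulin-like growth factor (IGF) axis sets chondrocyte enlargement, with ligands that signal through Igf1r, a clearance receptor Igf2r, and binding proteins that hold the ligands. Of its 20 measured genes, 5 were positive and 1 negative at an unadjusted limma p under 0.05, with a median of 0.17, and 0 passed after adjustment. The ligands and the signalling receptor had small differences. Igf2 had 7.07, 7.92 and 8.70 on Ezh1/2 arrays and 7.80, 7.94 and 8.25 on wild-type arrays (-0.08 ± 0.22, SE), Igf1 4.82, 5.51 and 6.71 and 4.85, 5.35 and 5.75 (0.31 ± 0.32, SE), and Igf1r 6.33, 6.78 and 7.05 and 6.64, 6.98 and 7.32 (-0.27 ± 0.15, SE). All 3 had overlapping groups, and Igf1 and Igf2 were spread wider among Ezh1/2 arrays (SD 0.80 and 0.54) than among wild-type arrays (SD 0.37 and 0.16).

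The binding proteins and the clearance receptor had the larger differences. Igfbp5, whose protein binds IGFs and matrix, had 5.69, 6.67 and 8.30 on Ezh1/2 arrays and 4.39, 4.65 and 5.88 on wild-type arrays, a 3.63-fold difference (1.86 ± 0.40, SE, adjusted p = 0.224 from limma). Only wild-type array 2, at 5.88, reached into the Ezh1/2 range, and it was also high in perichondrium markers, as was Ezh1/2 array 6, at 8.30. Without the 4 arrays high in muscle markers, which include both of these, the difference was 1.57. Igfbp3, the main IGF carrier of serum, had 6.75, 7.21 and 7.68 on Ezh1/2 arrays and 5.25, 6.13 and 6.72 on wild-type arrays, a 2.15-fold difference without overlap (1.11 ± 0.24, SE, adjusted p = 0.233 from limma). Its lowest Ezh1/2 array and its highest wild-type array lay close together. Igf2r had 6.49, 6.71 and 7.56 on Ezh1/2 arrays and 5.43, 5.71 and 6.52 on wild-type arrays (1.04 ± 0.22, SE, adjusted p = 0.214 from limma), and only wild-type array 2 overlapped with Ezh1/2 arrays.

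The other positive members were Igfbp4 (0.63) and Igfbp7 (1.0), both with overlapping groups. The matricellular gene Ccn1, counted with the axis for its similarity to the binding proteins, was the negative one. Ccn1 had 8.26, 8.77 and 8.98 on Ezh1/2 arrays and 8.99, 9.29 and 9.44 on wild-type arrays, without overlap (-0.54 ± 0.14, SE, adjusted p = 0.358 from limma).

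**Figure D3:**
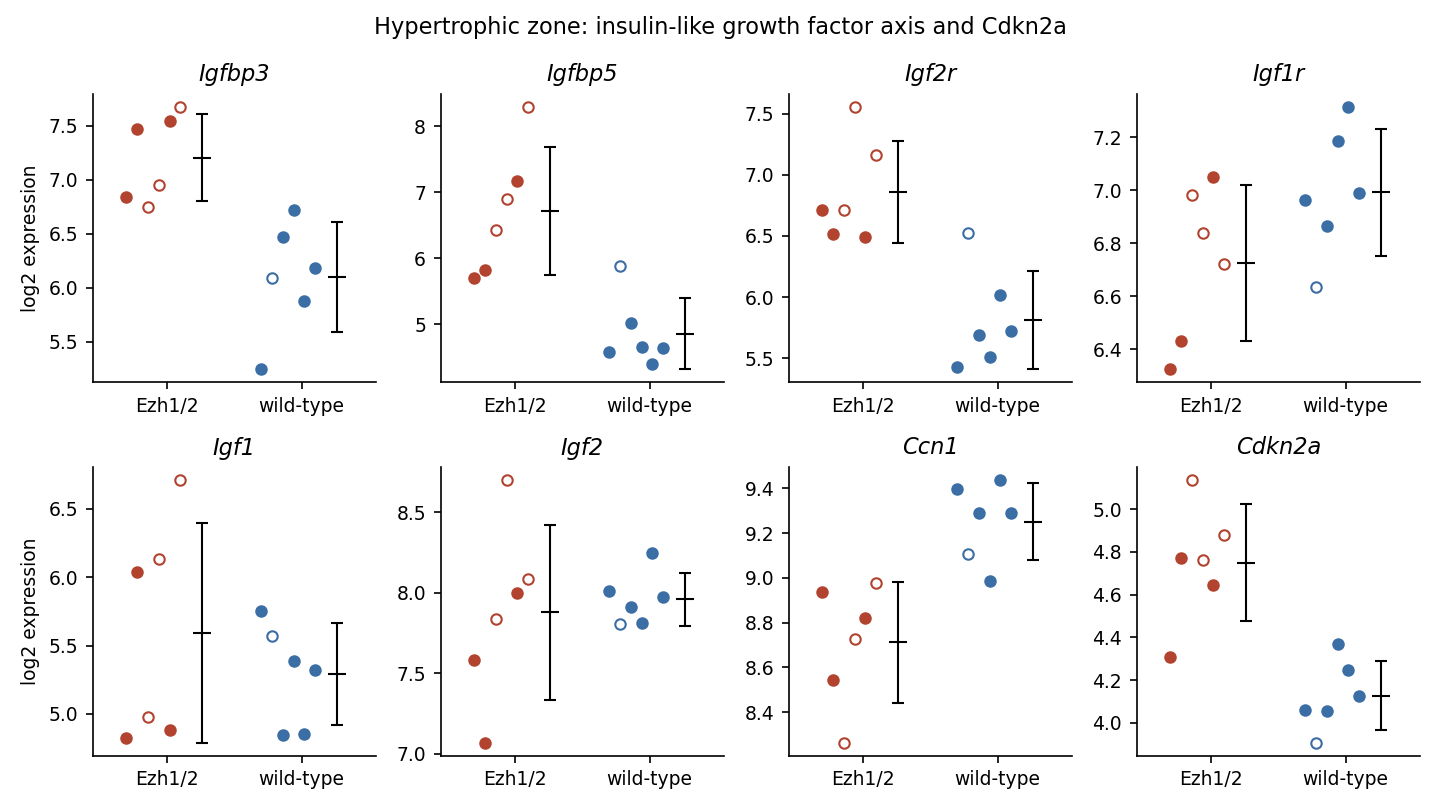
Log2 expression (y axis) of 7 genes of the IGF axis and of Cdkn2a on each HZ array, Ezh1/2 arrays on the left and wild-type arrays on the right, with mean ± SD as a bar and arrays high in skeletal muscle markers as open symbols. Igfbp3 and Ccn1 have groups without overlap, while the ligands Igf1 and Igf2 and the receptor Igf1r overlap.

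The cell cycle inhibitors of the Ink4 locus, well-known PRC2 targets, were low on all HZ arrays. Cdkn2a had 4.31, 4.77 and 5.14 on Ezh1/2 arrays and 3.91, 4.09 and 4.37 on wild-type arrays (0.62 ± 0.14, SE, adjusted p = 0.227 from limma). The overlap came from Ezh1/2 array 1 and wild-type array 4, and without the 4 arrays high in muscle markers the difference was 0.40. Cdkn2b had 4.97, 5.21 and 6.13 on Ezh1/2 arrays and 4.32, 4.70 and 5.08 on wild-type arrays (0.64 ± 0.20, SE, adjusted p = 0.51). These were the 2 of 7 CDK inhibitor genes with an unadjusted limma p under 0.05, and 5 others, among them Cdkn1c (-0.52 ± 0.26, SE), had none. Of 23 proliferation genes 0 reached that level, with Mki67 at 0.14 ± 0.43 (SE) and Top2a at 0.03 ± 0.44 (SE).

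Developmental transcription factors, the classical PRC2 targets of many tissues, had mostly positive differences. Of 52 measured genes, 15 had positive and 1 had a negative difference at an unadjusted limma p under 0.05, and 5 had groups without overlap, where 3.74%, 3.19% and 0.406% of all genes did. None passed after adjustment over all probe sets, and 1, Isl1, did on 1 probe set a gene. The list's median difference was 0.18, and 0.13 without the 4 arrays high in muscle markers. The list was chosen with earlier results of these data known, so its counts and means are descriptions. The mean of the list was between 4.60 and 4.71 on Ezh1/2 arrays and between 4.39 and 4.48 on wild-type arrays, so that it parted the groups on every array, those high in muscle markers or narrow in range included. These levels lie near the array medians of 4.36 to 4.45 on Ezh1/2 arrays, and values summarized by RMA (the robust multi-array average) do not tell which of them exceed background.

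The members with the lowest p came from unlike lineages. Isl1, a LIM-homeodomain factor of motor neurons, heart and hindlimb, had 4.55, 4.66 and 5.47 on Ezh1/2 arrays and 3.64, 3.77 and 4.14 on wild-type arrays (1.07 ± 0.18, SE, adjusted p = 0.141 from limma). Foxd1, a forkhead factor of kidney stroma, had 4.11, 4.49 and 4.81 on Ezh1/2 arrays and 3.68, 3.84 and 4.03 on wild-type arrays (0.65 ± 0.13, SE, adjusted p = 0.186). Lhx9, a LIM factor of gonad and limb, had 4.15, 4.37 and 4.67 on Ezh1/2 arrays and 3.51, 3.85 and 4.0 on wild-type arrays (0.58 ± 0.11, SE, adjusted p = 0.186). None of these had overlapping groups, and neither had the endodermal and cardiac factor Gata6 (0.53) nor the homeobox gene Hoxd8 (0.64). The homeobox cofactor Meis1 had 4.67, 5.38 and 5.59 on Ezh1/2 arrays and 4.11, 4.33 and 4.97 on wild-type arrays (0.85 ± 0.18, SE, adjusted p = 0.215), and wild-type array 6 alone reached into the Ezh1/2 range. Lef1, the nuclear partner of beta-catenin, had 1.07 ± 0.32 (SE, adjusted p = 0.446). The negative member was the limb gene Hoxd12 (-0.32).

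**Figure D4:**
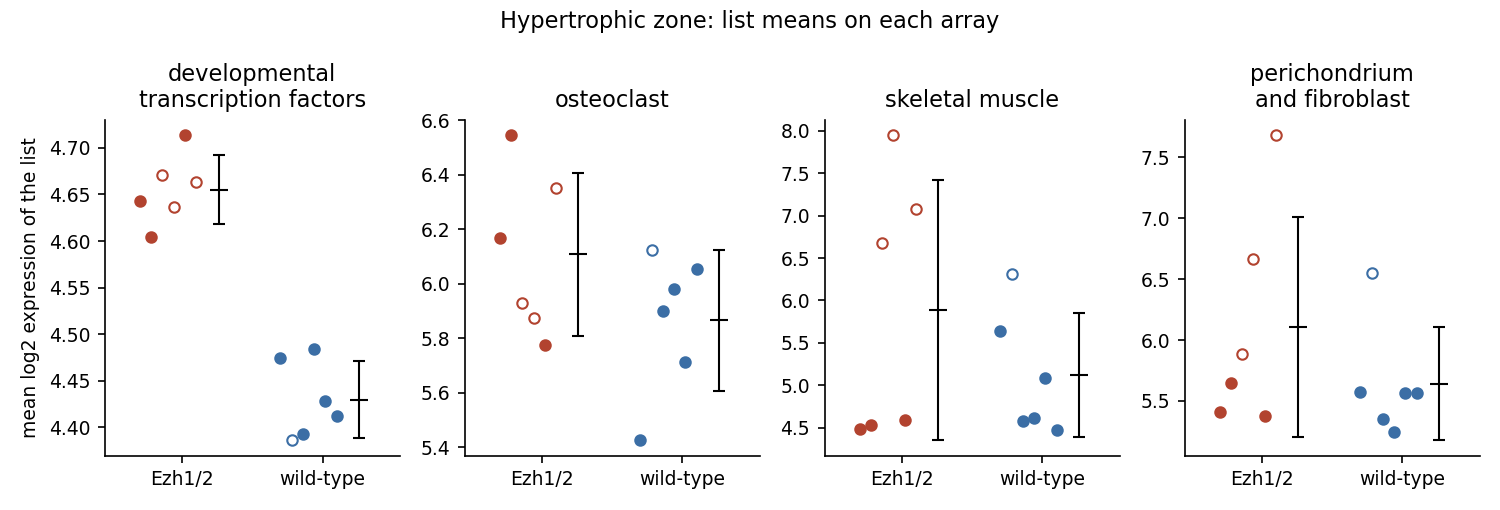
Mean log2 expression of 4 gene lists on each HZ array (y axis), Ezh1/2 arrays on the left and wild-type arrays on the right, with mean ± SD as a bar and arrays high in skeletal muscle markers as open symbols. The developmental transcription factors part the groups, at 4.60 to 4.71 on Ezh1/2 arrays and 4.39 to 4.48 on wild-type arrays, while the osteoclast, muscle and perichondrium means overlap. The lists were chosen with earlier results of these data known.

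Metabolic genes were read as lists by pathway. Of 36 genes of glycolysis and the hypoxia response, 7 were negative and 1 positive at an unadjusted limma p under 0.05, with a median of -0.10, and the mean of the list was 6.05 to 6.48 on Ezh1/2 arrays and 6.19 to 6.60 on wild-type arrays. Slc2a1, the main glucose transporter of chondrocytes, had 7.83, 8.15 and 8.91 on Ezh1/2 arrays and 9.11, 9.45 and 9.69 on wild-type arrays, without overlap (-1.13 ± 0.19, SE, adjusted p = 0.165 from limma). Its other probe set had -0.57 ± 0.17 (SE). P4ha2, a subunit of the collagen prolyl hydroxylase, had 5.22, 6.03 and 6.35 on Ezh1/2 arrays and 6.40, 6.55 and 6.88 on wild-type arrays, also without overlap (-0.68 ± 0.19, SE, adjusted p = 0.412). The mitophagy gene Bnip3 (-0.82) and the aldolase Aldoc (-0.58) were further negative members. The positive one was Ldhb, the lactate dehydrogenase subunit of oxidative tissues, with 5.57, 5.91 and 6.16 on Ezh1/2 arrays and 4.52, 5.12 and 5.34 on wild-type arrays, again without overlap (0.90 ± 0.16, SE, adjusted p = 0.186).

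Mitochondrial lists had positive medians, but their means overlapped widely between the groups. The mean of the tricarboxylic acid cycle list was 5.90 to 6.68 on Ezh1/2 arrays and 5.73 to 6.42 on wild-type arrays, and that of oxidative phosphorylation was 6.83 to 7.64 and 6.61 to 7.58. Of 24 tricarboxylic acid cycle genes, 22 had positive differences and 3 of these an unadjusted limma p under 0.05 (median 0.27), among them citrate synthase (Cs, 0.38) and Idh2 (0.64, and 0.28 without the 4 arrays high in muscle markers). Of 51 oxidative phosphorylation genes, 44 were positive, 2 of them and 1 negative one at that level (median 0.21). The coactivator of mitochondrial genes Ppargc1a had 4.36, 4.94 and 5.25 on Ezh1/2 arrays and 3.88, 4.03 and 4.54 on wild-type arrays (0.78 ± 0.16, SE, adjusted p = 0.196 from limma), and the complex I subunit Ndufv2 had 0.70. Of 31 genes of fatty acid oxidation and lipid storage, 6 were positive and 1 negative (median 0.17). Acadm, which opens the oxidation of medium chains, had 6.92, 7.38 and 7.85 on Ezh1/2 arrays and 5.44, 6.78 and 7.02 on wild-type arrays (0.92 ± 0.26, SE, adjusted p = 0.421), and Etfdh, which passes the electrons on to the respiratory chain, had 0.71. The negative one was the desaturase Scd1 (-1.27 ± 0.35, SE, adjusted p = 0.409).

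The part of muscle in these differences was not tested. Muscle is rich in these pathways, and its markers averaged above 6 on 3 Ezh1/2 arrays and 1 wild-type array. Leaving these 4 arrays out kept wild-type arrays 1 and 5, with muscle marker means of 5.64 and 5.08. The other arrays kept had 4.47 to 4.61. Without those 4 arrays 0 tricarboxylic acid cycle genes had an unadjusted limma p under 0.05, and the medians were 0.20, 0.18 and 0.22 for the cycle, oxidative phosphorylation and fatty acid lists. Acadm then had 1.0, Ppargc1a 0.56 and Acadl, the long-chain enzyme, 0.47 in place of 1.03. In the PZ the medians of these 3 lists were -0.13, -0.19 and -0.10.

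The lists of cholesterol synthesis and of the unfolded protein response had negative medians. Of 19 cholesterol synthesis genes 2 were negative and 0 positive at an unadjusted limma p under 0.05 (median -0.27), with Fdps, which makes farnesyl diphosphate, at -0.68 ± 0.21 (SE). Of 26 genes of the unfolded protein response and secretion 24 were negative, 2 of them at that level (median -0.23), with the chaperone Hspa5 at -0.38 ± 0.13 (SE). Of 19 genes of serine and amino acid supply 0 were positive and 1 negative (median -0.0061). Of 22 genes of iron and copper handling, Cp and the metalloreductase Steap4 were the 2 positive ones. Steap4 had 6.36, 8.11 and 9.15 on Ezh1/2 arrays and 4.45, 6.53 and 7.58 on wild-type arrays, with wide overlap (1.53 ± 0.53, SE, adjusted p = 0.572 from limma). The remaining iron and copper genes centred on 0, with a list median of 0.02. Of 20 pump and ion transport genes, the calcium channel subunits Cacna1h (0.72) and Cacna1c (0.72) were positive and 4, led by Fxyd2, negative.

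Markers of other tissues were uneven from array to array. The mean of 30 skeletal muscle markers was 4.49, 5.63 and 7.95 (lowest, median and highest) on Ezh1/2 arrays and 4.47, 4.85 and 6.32 on wild-type arrays. Of these 30, 29 had positive differences, with a median of 0.88, yet 1 had an unadjusted limma p under 0.05 (the glycogen phosphorylase Pygm, 1.26 ± 0.47, SE), since the median SD was 1.47 among Ezh1/2 arrays and 0.689 among wild-type arrays. The perinatal myosin Myh8 spanned 4.85 to 12.36 on Ezh1/2 arrays and 4.10 to 10.73 on wild-type arrays, and skeletal actin (Acta1) 5.35 to 12.14 and 5.78 to 10.21. These 2 genes and the muscle calcium pump regulator Sln were among the 6 genes with the largest SD among Ezh1/2 arrays.

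The mean of 26 perichondrium and fibroblast markers was 5.38, 5.77 and 7.68 on Ezh1/2 arrays and 5.25, 5.57 and 6.55 on wild-type arrays. Of these, 3 were positive at an unadjusted limma p under 0.05, among them the fibroblast protease Fap (0.83) and the receptor Pdgfra (0.70), and the periosteal matrix gene Postn spanned 4.34 to 10.70 on Ezh1/2 arrays. The high values were those of Ezh1/2 arrays 4 and 6 and wild-type array 2. Without the 4 arrays high in muscle markers the list medians were -0.28 for muscle and -0.01 for perichondrium. Muscle RNA was not removed evenly, since wild-type array 1, with a muscle marker mean of 5.64, was kept. These tissues keep Ezh2 in both genotypes, and their part in the differences of single chondrocyte genes was not tested beyond the values given without those arrays.

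Osteoclast markers averaged 5.78 to 6.55 on Ezh1/2 arrays and 5.42 to 6.12 on wild-type arrays. Of 17 markers 4 were positive and 1 negative at an unadjusted limma p under 0.05, and the median was 0.31. At any p, 11 differences were positive and 6 negative, the lowest -0.61. The positive ones at that level included Itgb3, the collagen-degrading cathepsin Ctsk (0.88 ± 0.32, SE, adjusted p = 0.612 from limma) and the acid phosphatase Acp5 (0.62 ± 0.27, SE, adjusted p = 0.733). The list's median was 0.29 without the 4 arrays high in muscle markers and 0.16 without the 3 of narrow range. Osteoblast markers had a median of 0.01 (0.08 and 0.10 without these arrays), endothelial markers one of 0.26 (0.07 without the arrays of narrow range) with 1 of 23 positive at that level, and macrophage and granulocyte markers one of 0.24 with 1 of 23, the leukocyte gene Laptm5 (0.51). More cells of a type and more RNA per cell cannot be told apart in such samples. Lymphocyte, nerve, adipocyte, erythroid and epidermal lists had medians between -0.07 and 0.02, and the erythroid one was 0.13 without the arrays of narrow range.

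To ask which differences belonged to the HZ, the genotype difference in the HZ was set against that in the PZ over all 24 arrays. It was larger in the HZ for 5 probe sets and smaller for 7 at an adjusted p under 0.05 in limma (0.0121% and 0.0169%, together 0.029%, of 41345). Cp, Adamts9 and Ncam1 were among the 5. Cp had 1.60 in the HZ and -0.27 in the PZ (difference of the differences 1.87 ± 0.28, SE, adjusted p = 0.00666). Adamts9 had 1.15 and -0.37 (1.52 ± 0.21, SE, adjusted p = 0.0044), and Ncam1 1.32 and -0.05 (1.37 ± 0.21, SE, adjusted p = 0.00666). The called probe set without a symbol was the fourth, and the fifth was Otogl, an inner-ear matrix glycoprotein gene with -0.07 in the HZ and -1.23 in the PZ.

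Cbln2 had -1.0 in the HZ and -0.09 in the PZ, and this difference did not pass (adjusted p = 0.0952 from limma), nor did those of Homer2 (0.83 and 0.30, adjusted p = 0.278) and Chst1 (2.0 and 0.40, adjusted p = 0.219). Igfbp3 and Igfbp5 had -0.36 and -0.27 in the PZ (adjusted p for the difference between zones 0.276 and 0.253 from limma). The list of developmental factors had a median difference of 0.18 in the HZ and 0.10 in the PZ. In the HZ 37 of its 52 measured members were positive and 15 negative. Among members with low p in the HZ, Isl1 (1.07 in the HZ and 0.85 in the PZ), Lhx9 (0.58 and 0.97) and Meis1 (0.85 and 1.14) were positive in both zones. Genes with a smaller difference in the HZ than in the PZ were the chromatin factor Prdm6 (0.28 and 0.96), the BMP antagonist Chrdl2 (0.13 and 1.22), C1ql1, a relative of Cbln2 (-0.48 and 0.77), the potassium channel Kcnd2 (-0.07 and 0.89) and Pappa2, a protease that cleaves IGF-binding proteins (0.20 and 1.62). Pappa2 fell outside the rule for named genes and is named because it was called.

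**Figure D5:**
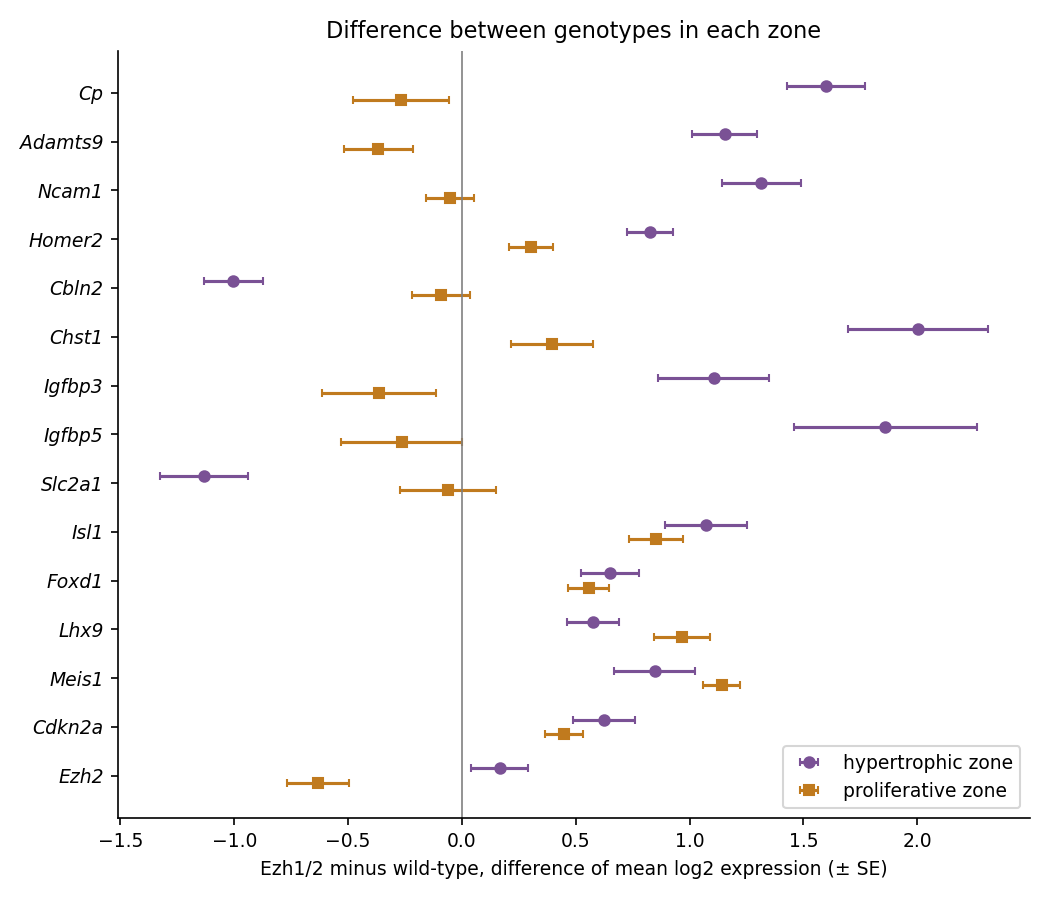
Difference of mean log2 expression, Ezh1/2 minus wild-type, with SE (x axis), in the HZ (circles) and the PZ (squares) for 15 genes (y axis). Cp lies at 1.60 in the HZ and -0.27 in the PZ, while Isl1, Foxd1, Lhx9 and Meis1 lie above 0 in both.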

How the data were processed

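The authors hybridized amplified RNA from microdissected HZ and PZ tissue to Affymetrix Mouse Gene 2.0 ST arrays, summarized them by RMA in Partek Genomics Suite and deposited the log2 values of 41345 probe sets, none missing. Whether both zones were normalized in 1 run is not given in the sources used here. RMA compresses low values and assumes like overall distributions. Here, values were used as deposited. Probe sets were named from the platform annotation (23521 with 1 symbol, 1820 with several and 16004 with none, of which only the first kind is named), and a gene with several was read from the one with the highest mean over 24 arrays. Of the probe sets with 1 symbol, 23328 matched a RefSeq record.

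The 12 HZ arrays were fitted with limma 3.58.1 in R 4.3.3 (genotype as the only term, moderated variances), and p-values were adjusted by Benjamini and Hochberg over all probe sets. All differences are Ezh1/2 minus wild-type. The difference between zones was the interaction term over 24 arrays. Exact permutation tests used all 924 arrangements and were two-sided. The test was checked on simulated data, with 50 probe sets changed by each of 4 log2 differences. It called 3 of those changed by 0.5, 36 by 1, 46 by 2 and 32 by -1, with 9 false calls. The simulated noise was independent between probe sets and arrays. It thus held no effects shared across an array, such as RNA of other tissues, and the count of false calls does not cover them. By the labels each array held tissue of a single animal.

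Named genes were those called, the 12 higher and 12 lower genes with the lowest p among those with groups that do not overlap, up to 4 members a list by p, a fixed set (HZ markers, IGF axis, cell cycle inhibitors and zone markers), 4 genes each way by interaction p, and 6 a group by SD, of which the text gives a part. A further 12 genes, such as Igfbp4, Igfbp7, Adamts1, Lef1 and Acp5, are outside this rule and were named after their values were seen. The 34 gene lists and the named genes were chosen with earlier results of these data known, so counts over a list are descriptions. Alternatives were leaving out each array, the replicate number as a block, a spread shared by all arrays, unmoderated or trended variances, array weights, quantile normalization, scaling, a filter on dim probe sets, 1 probe set a gene and leaving out 3 arrays of narrow range. Leaving out 4 arrays with muscle marker means above 6 was added after seeing the data. Precision is limited by having 6 arrays a group.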

Additional observations from a re-analysis of the deposited data

Results flagged for a closer look

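The genotype difference in the HZ minus that in the PZ passed for 9 genes in limma. It was 1.87 for Cp (adjusted p = 0.00666), 1.52 for Adamts9 (0.0044), 1.37 for Ncam1 (0.00666) and 1.16 for Otogl (0.0239). It was -0.68 for Prdm6 (0.017), -1.08 for Chrdl2 (0.023), -1.26 for C1ql1 (0.0414), -0.97 for Kcnd2 (0.0463) and -1.42 for Pappa2 (0.0494). For Cp, Adamts9 and Ncam1 the difference lay in the HZ, while for the other 6 the larger difference lay in the PZ.

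Single arrays stood far from the 5 others of their group, by a gap to the nearest one that took most of the group's range, for 18 of 204 groups of named genes. Chance alone marks about 1 in 20 groups. Wild-type array 1 was the lowest for Mmp13 (gap 0.881 of the range), Itgb3 (0.748), Igfbp7 (0.738) and Acp5 (0.629) and the highest for Isl1 (0.681). This array also had the narrowest interquartile range (1.35) and the lowest mean of endothelial markers (4.45) of the 12 HZ arrays. Ezh1/2 array 6, highest in perichondrium markers, was the highest for Prg4 (0.659) and Htra1 (0.633). Wild-type array 2, high in muscle markers, was the highest for Sln (0.873) and Pygm (0.632). Ezh1/2 array 4, highest in muscle markers, was the highest for Pappa2 (0.733) and the lowest for Mmp13 (0.63). Wild-type array 5 was the highest for Adamts1 (0.697) and C1ql1 (0.627), wild-type array 4 the lowest for Panx3 (0.749), wild-type array 6 the highest for Meis1 (0.661) and wild-type array 3 the highest for Ppargc1a (0.64). Ezh1/2 array 1 was the lowest for Bicc1 (0.674) and Ezh1/2 array 5 the highest for Aldoc (0.659).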

How the results depend on the processing

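At an adjusted p under 0.05 in limma, 6 probe sets rose and 1 fell, and at an unadjusted p under 0.001 with a fold over 1.3, 81 were higher and 55 lower. Without each array in turn the counts ran from 0 to 6 and from 0 to 1 after adjustment, and from 61 to 93 and from 35 to 85 before it. Whether equal replicate numbers pair Ezh1/2 and wild-type mice, as by litter or batch, is not given in the sources used here. Deviations of same-numbered arrays correlated at 0.0324 to 0.274, 3 of the 6 above 0.1, and 4 of 6 Ezh1/2 arrays correlated best with their own number. With the number as a block, 1 rose and 0 fell after adjustment. The 1 was Chst1 (adjusted p = 0.00705 in limma), not called without the block, while the 6 named genes called without it had adjusted p from 0.135 to 0.153. The spread of all 24 arrays gave 128 and 74 after adjustment and 218 and 176 before it. It takes in the PZ arrays, which varied less, and can understate the HZ spread. Unmoderated variances gave 1 and 0 after adjustment and 34 lower before it. An intensity trend with a robust prior gave 0 falls, array weights 91 lower and a filter on dim probe sets 31 lower before adjustment. With 1 probe set a gene, 3 fell after adjustment and 32 were lower before it. Without Ezh1/2 array 1 and wild-type arrays 1 and 4, the counts were 0 and 0 after adjustment and 46 and 103 before it, so that the excess of higher probe sets turned, as it did without wild-type array 1 (63 and 78) or 4 (76 and 85). Without Ezh1/2 arrays 3, 4 and 6 and wild-type array 2, a choice made after seeing the data, they were 0 and 0 after adjustment and 51 and 23 before it, where limma gave a positive difference for 975 and a negative one for 967 at unadjusted p under 0.05. Both of these leave fewer arrays to test. Quantile normalization over the 12 HZ arrays and centring with scaling kept all 4 counts within 1.5 times.

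The difference between zones was larger in the HZ for 5 probe sets and smaller for 7. Leaving out each of the 24 arrays gave 4 to 9 and 3 to 14. The animal number as a random block gave 12 smaller, though Xist was above 10 in only 1 zone for wild-type numbers 3 and 5, so that these may not be 1 animal each, and quantile normalization over 24 arrays gave 2 smaller.

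Among values of named genes under the alternatives, 25 changed sign, 78 lost and 38 gained a call and 2193 did neither. Of the gained calls, 25 came with the spread of all 24 arrays. The sign changes touched genes with no call in the HZ. Without Ezh1/2 arrays 3, 4 and 6 and wild-type array 2, Sln had -0.21, Myh8 -1.53, Acta1 -1.33, Postn -0.22, Mki67 -0.0751, Top2a -0.0647, Pappa2 -0.0797, Otogl 0.0375 and Kcnd2 0.0286. Without Ezh1/2 array 1 and wild-type arrays 1 and 4, Mmp13 had -0.0266, and Top2a had -0.0082 after scaling. Leaving out single arrays turned Mmp13 (-0.0004 to 0.6584), Igf2 (-0.2456 to 0.081), Mki67 (-0.0907 to 0.3541), Top2a (-0.1738 to 0.2221) and Ezh1 (-0.0942 to 0.0143). The causes were not tested. Of the list medians 6 moved by more than the replicate spread and 130 did not. Among the 6 were the developmental transcription factors (0.13 without the arrays high in muscle markers).

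RMA values hold no measure of signal over background. The 6 arrays a group limit how small a difference can pass.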
